A study of Homo sapiens with 12 samples.

Results

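The comparison set the Addback derivative of the MCF10-A line, which grew from breast epithelium that was not cancerous, against the Vector derivative, both detached from matrix and both carrying the treatment label EDTA. EDTA chelates divalent cations such as calcium and magnesium, on which cadherins and integrins depend. Of the 12 libraries of the series, 4 carry these labels and were chosen by their titles: 2 of Addback EDTA and 2 of Vector EDTA. The other 8 libraries (2 each of B4-4 EDTA, Addback NA, Vector NA and B4-4 NA) entered the fit for its estimate of the spread and are quoted where a level needs a place to stand beside. Before harvest all cells of the series, passaged with 5% horse serum, were trypsinized and kept detached on a poly-HEMA surface without serum for 3 hours. Several facts are missing from the labels: what NA stands for, the dose and timing of EDTA, the way each derivative was produced, and whether a derivative is 1 clone or a pool.

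The study concerns the integrin that pairs the alpha 6 and beta 4 chains. This receptor binds laminin in the basement membrane and, through plectin and keratin filaments, forms the hemidesmosomes that hold basal epithelial cells in place. Cells that lose such contacts lose survival signals that integrins share with growth factor receptors, and epithelial cells kept in suspension may die by anoikis, cluster through cadherins and nectins, or leave the cell cycle. The comparison asks how far a line called Addback differed from the control line once EDTA was present.

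Levels are given as CPM, the reads of a gene scaled to a common library total, on library sizes scaled by TMM factors. They are not divided by gene length, so they compare libraries within a gene and not genes with each other. Differences are log2 fold changes of Addback EDTA over Vector EDTA with their standard error (SE). A gene is called, and is said to have risen or fallen, at an adjusted p under 0.05 in edgeR's quasi-likelihood test. Each group has 2 libraries called replicates, and no label ties them to separate cultures, so a p-value reflects only how far these libraries differed, a spread that may be technical.

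The libraries compared held 17165326 and 18193449 counts in Addback EDTA and 21474080 and 22156173 counts in Vector EDTA, and the 12 libraries ran from 15685376 to 22156173 counts. A count of 3 stood for 0.133 to 0.175 CPM in the 4 libraries. Basal mammary markers, as MCF10-A cells are known to express, summed to 8647 and 6933 CPM in Addback EDTA and to 7967 and 8259 CPM in Vector EDTA. Of these 6 genes 0 rose and 1 fell, TP63, with 1971 and 1523 counts in Addback EDTA and 3476 and 3070 counts in Vector EDTA. Its call was lost without Addback EDTA 2, without either Vector EDTA library and without any 1 of the B4-4 EDTA, Addback NA or Vector NA libraries. The defining endothelial gene CDH5 and the leukocyte genes CD3E and LYZ had 0 counts in all 4 libraries. Endothelial markers summed to 34.7 and 12.3 CPM in Addback EDTA and to 23.3 and 25.2 CPM in Vector EDTA, most of it from PECAM1 with 585 and 204 counts in Addback EDTA and 490 and 547 counts in Vector EDTA. Luminal markers summed to 19.7 and 28.4 CPM in Addback EDTA and to 23.7 and 24.2 CPM in Vector EDTA, with members that went different ways. FOXA1, the 1 called of 4 tested, had 128 and 199 counts in Addback EDTA and 58 and 62 counts in Vector EDTA. GATA3, not called, had 197 and 279 counts in Addback EDTA and 434 and 469 counts in Vector EDTA. In bulk RNA, fewer cells of a type and less RNA per cell cannot be told apart.

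The 2 Addback EDTA libraries stood well apart from each other. The coefficient of biological variation within the pair was 18.8% in Addback EDTA and 10.2% in Vector EDTA, was between 3.00% and 5.85% in B4-4 EDTA, Addback NA and Vector NA, and was highest in B4-4 NA at 24.2%. At 5 CPM or more in both libraries, 140 of 10194 genes (1.37%) lay at least 2-fold apart in the Addback EDTA pair, against 7 of 10390 genes (0.0674%) in the Vector EDTA pair and 301 of 10268 genes (2.93%) in the B4-4 NA pair, which shares the estimate of the spread. Addback EDTA 2 is labelled with sequencing lane 7, where the other 11 libraries are labelled with lane 8, and with 1 library in that lane the lane and the library cannot be told apart. Of the 140 genes, Addback EDTA 2 was off Addback EDTA 1 towards the B4-4 EDTA mean in 121, towards the Vector EDTA mean in 77 and towards the Addback NA mean in 82. The directions were not counted over the other genes, so these counts have no baseline. Because the pair stood apart, calls of named genes that were lost without an Addback EDTA library are given below.

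Genes of at least 5 CPM in 1 of these 2 libraries and with the largest ratio between them show how far apart they were. SLC6A12, a betaine transporter, had 40.1 CPM in Addback EDTA 1 and 0.284 CPM in Addback EDTA 2, against 0.463 and 0.931 CPM in Vector EDTA. RANBP3L had 11.3 and 0 CPM in Addback EDTA, against 0.0927 and 0.0443 CPM in Vector EDTA. FOSB, an AP-1 subunit, had 172 and 12.7 CPM in Addback EDTA, against 196 and 208 CPM in Vector EDTA. In these genes Addback EDTA 2 was the low library of the pair. The cytokine gene IL32 ran the other way, with 3.92 and 46.9 CPM in Addback EDTA against 1.16 and 1.15 CPM in Vector EDTA, and so did the gelatinase gene MMP9, with 2.51 and 28.2 CPM against 0.602 and 0.310 CPM. The ribosomal RNA row RNA5-8SN1, whose transcript carries no polyA tail, had 21.8 and 225 CPM in Addback EDTA and 27.9 and 26.8 CPM in Vector EDTA. None of these 6 genes was called, with adjusted p-values from 0.0503 for IL32 to 0.553 for FOSB.

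**Figure D1:**
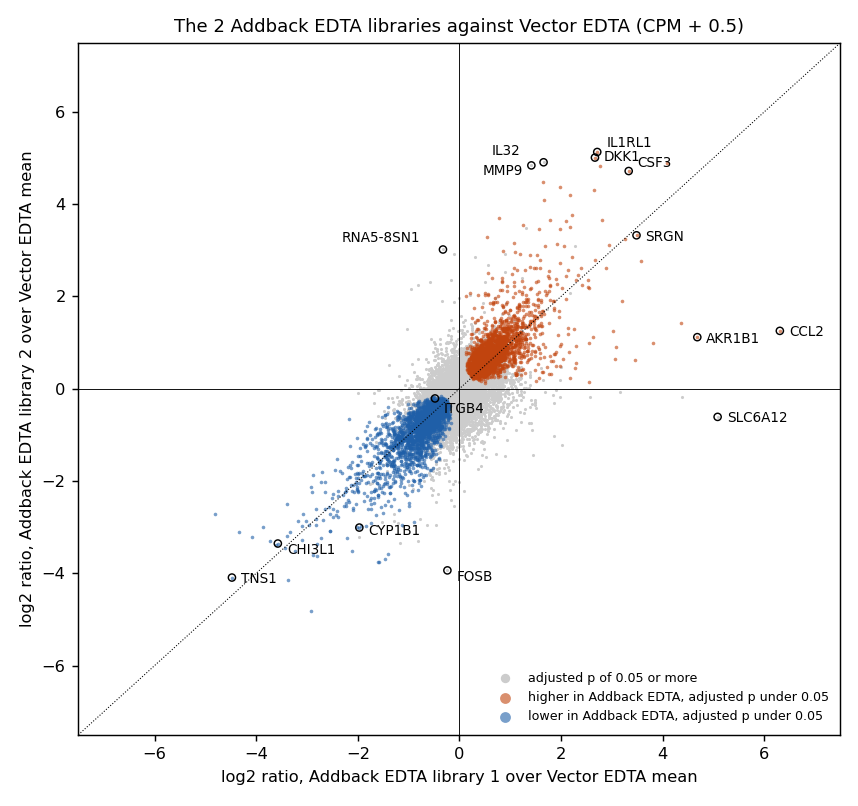
Each point is a tested gene, with the log2 ratio of Addback EDTA library 1 over the Vector EDTA mean on the horizontal axis and that of library 2 on the vertical axis, both on CPM + 0.5; the dotted line marks equal ratios. Most called genes (red, higher; blue, lower) lie near the dotted line, while CCL2, AKR1B1, SLC6A12 and FOSB lie below it and IL32, MMP9 and RNA5-8SN1 above it.

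The lines differed widely under EDTA. Of 15749 genes tested, 4728 were called (30.0%), 2529 of them higher in Addback EDTA (16.1%) and 2199 lower (14.0%). The median absolute log2 fold change of called genes was 0.71. Of the called genes, 1759 changed by less than 1.5-fold, 632 rose and 868 fell at least 2-fold, and 207 rose and 309 fell at least 4-fold. The median log2 fold change of all genes was 0.0088. The count was 4552 without Addback EDTA 1, 3144 without Addback EDTA 2 (2814 of them also called with all libraries), 2718 without Vector EDTA 1 and 6216 without B4-4 NA 1. With upper-quartile scaling 2247 genes were higher and 2429 lower, so the larger of the 2 directions turned. Of the 652 genes called, changed at least 2-fold and with a mean of at least 5 CPM, 393 lay at least 2-fold from the Vector EDTA mean in both Addback EDTA libraries, 66 only in Addback EDTA 1 and 190 only in Addback EDTA 2.

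ITGB4 (ENSG00000132470, chromosome 17, 75721328 to 75757818, GRCh38), which encodes the beta 4 chain, had 1264 and 1525 CPM in Addback EDTA and 1678 and 1850 CPM in Vector EDTA. Both Addback EDTA libraries lay below both Vector EDTA libraries, and far above the 372 and 390 CPM of B4-4 EDTA. The log2 fold change over Vector EDTA was -0.34 (SE 0.28, adjusted p = 0.404), so the fall was not called, while without B4-4 NA 1 it was -0.34 with an adjusted p of 0.00715 and without B4-4 NA 2 it was -0.34 with an adjusted p of 0.00922. Against B4-4 EDTA, Addback EDTA was higher by 1.87 on the log2 scale (SE 0.29, adjusted p = 0.00471). Gene-level counts do not tell an endogenous transcript from one introduced into the cells.

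ITGA6, the alpha 6 chain that pairs with beta 4 or beta 1, had 981 and 816 CPM in Addback EDTA and 900 and 805 CPM in Vector EDTA, and the groups overlapped (log2 fold change 0.08, SE 0.13, adjusted p = 0.695). PROM2, prominin-2, a membrane protein of cell protrusions that is known to promote iron export and resistance to ferroptosis in detached mammary cells, had 4.56 and 4.21 CPM in Addback EDTA and 4.73 and 4.48 CPM in Vector EDTA (log2 fold change -0.07, SE 0.17, adjusted p = 0.785). NECTIN4, a nectin that mediates adhesion between epithelial cells, had 13.7 and 4.95 CPM in Addback EDTA around the 10.8 and 11.7 CPM of Vector EDTA (adjusted p = 0.591). Without Addback EDTA 1, which leaves 1 Addback EDTA library, the log2 fold change of NECTIN4 was -1.18. None of these 3 genes was called with all libraries.

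Of 13 tested genes of the laminin receptor and hemidesmosome list, 2 rose and 2 fell, 30.8% called against 30.0% of all genes, with a median log2 fold change of 0.18. Without either B4-4 NA library, 6 rose and 4 fell. PLEC, the plectin that links beta 4 to keratin, had 1395 and 1467 CPM in Addback EDTA and 932 and 1073 CPM in Vector EDTA (log2 fold change 0.51, SE 0.11, adjusted p = 0.00424, and 0.0649 without Vector EDTA 1). FERMT1, kindlin-1, an integrin activator, had 178 and 132 CPM in Addback EDTA and 93.9 and 98.1 CPM in Vector EDTA (log2 fold change 0.69, SE 0.14, adjusted p = 0.00267). COL17A1 and COL7A1, the collagens of the hemidesmosome and of its anchoring fibrils, fell by 0.26 and 0.50 on the log2 scale. Both calls were lost without Addback EDTA 2 (COL17A1, adjusted p = 0.124; COL7A1, adjusted p = 0.0592) and without Vector EDTA 2 (COL17A1, adjusted p = 0.149; COL7A1, adjusted p = 0.1). COL17A1 also lost it without Vector EDTA 1 (adjusted p = 0.0537) and without any 1 of the B4-4 EDTA or Vector NA libraries (adjusted p from 0.0613 to 0.0665). Among receptors for other matrix proteins, 0 of 14 rose and 3 fell, 21.4% called against 30.0% of all genes. ITGA10, a collagen-binding integrin chain, had 17.2 and 12.1 CPM in Addback EDTA and 54.2 and 63.2 CPM in Vector EDTA, and CD44, the hyaluronan receptor, had 658 and 627 CPM in Addback EDTA and 1026 and 959 CPM in Vector EDTA.

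The G1/S genes had the largest share of called members among the lists of at least 20 tested genes. These genes, many of them transcribed by E2F factors once the retinoblastoma protein is phosphorylated, license replication origins, make deoxynucleotides and form the replication fork. Of 22 tested, 20 rose in Addback EDTA and 0 fell, against 16.1% of all genes higher. The median log2 fold change was 1.11. CDT1 at 0.07 and RRM1 at 0.22 were the 2 not called. The count was 20 without either Addback EDTA library and between 19 and 21 with any 1 of the 12 libraries left out.

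UHRF1, which carries DNA methylation through replication, had 137 and 151 CPM in Addback EDTA and 38 and 41.1 CPM in Vector EDTA, a mean of 144 ± 9.39 against 39.6 ± 2.15 CPM (SD, n = 2 each) and a log2 fold change of 1.86 (SE 0.10, adjusted p = 4.73e-07). E2F2, an activating E2F factor, had 17.3 and 18.8 CPM in Addback EDTA and 2.78 and 3.24 CPM in Vector EDTA (log2 fold change 2.58, SE 0.22, adjusted p = 1.11e-05). MCM6, a subunit of the replicative helicase, had 122 and 149 CPM in Addback EDTA and 56.6 and 56.8 CPM in Vector EDTA (log2 fold change 1.26, SE 0.10, adjusted p = 8.87e-06). PCNA, the sliding clamp of the polymerase, had 221 and 223 CPM in Addback EDTA and 99.5 and 97.7 CPM in Vector EDTA (log2 fold change 1.17, SE 0.09, adjusted p = 6.05e-06). In each of the 4 genes, both Addback EDTA libraries stood at over 2 times the higher Vector EDTA library. B4-4 EDTA stood at 158 and 170 CPM for UHRF1 and at 195 and 203 CPM for PCNA, on the Addback EDTA side of Vector EDTA.

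The promoters of these genes are shown because the members rose together and E2F sites are known to control them. The windows run from 250 bases before to 50 bases after the gene start (RefSeq, GRCh38.p14), 5′ to 3′ on the strand of the gene, with the E2F matches in capitals. The motif was searched as TTTCGCGC, TTTGGCGC or TTTCCCGC on both strands. UHRF1 lies at chr19:4909251-4909550 on the plus strand, E2F2 at chr1:23531184-23531483, MCM6 at chr2:135876394-135876693 and PCNA at chr20:5126573-5126872, the last 3 on the minus strand.
UHRF1: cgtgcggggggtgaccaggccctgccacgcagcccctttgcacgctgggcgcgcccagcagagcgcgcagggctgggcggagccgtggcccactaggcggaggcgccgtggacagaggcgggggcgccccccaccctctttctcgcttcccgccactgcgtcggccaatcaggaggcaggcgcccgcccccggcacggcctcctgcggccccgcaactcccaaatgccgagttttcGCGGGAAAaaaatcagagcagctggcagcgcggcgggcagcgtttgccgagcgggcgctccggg
E2F2: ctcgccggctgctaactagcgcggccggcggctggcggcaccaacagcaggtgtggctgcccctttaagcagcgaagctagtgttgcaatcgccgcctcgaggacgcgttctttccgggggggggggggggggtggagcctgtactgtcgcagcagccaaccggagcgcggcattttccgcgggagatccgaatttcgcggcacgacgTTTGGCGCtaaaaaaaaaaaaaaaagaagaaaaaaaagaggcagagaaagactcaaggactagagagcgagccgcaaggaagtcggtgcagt
MCM6: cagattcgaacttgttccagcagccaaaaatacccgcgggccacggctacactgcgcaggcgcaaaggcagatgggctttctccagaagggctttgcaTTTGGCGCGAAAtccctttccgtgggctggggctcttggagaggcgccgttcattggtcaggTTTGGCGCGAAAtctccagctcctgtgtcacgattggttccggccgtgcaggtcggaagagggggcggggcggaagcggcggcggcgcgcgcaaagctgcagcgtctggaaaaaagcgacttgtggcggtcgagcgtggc
PCNA: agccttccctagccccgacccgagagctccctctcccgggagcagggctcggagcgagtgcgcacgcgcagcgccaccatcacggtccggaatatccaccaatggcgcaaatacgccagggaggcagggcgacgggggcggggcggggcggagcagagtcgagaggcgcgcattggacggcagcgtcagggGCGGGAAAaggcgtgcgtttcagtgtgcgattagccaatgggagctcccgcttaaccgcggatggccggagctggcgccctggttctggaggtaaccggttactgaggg
UHRF1, E2F2 and PCNA each hold 1 match, and MCM6 holds 4 that form 2 overlapping pairs, in each of which a plus-strand and a minus-strand match share bases. Of the 22 G1/S genes, 17 have an entry in the promoter table and 12 of them hold a match, against 961 of all 35116 promoters (2.74%). A match is a description of these letters and not a bound site.

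Mitotic genes moved less and less evenly. Of 22 G2/M genes, 11 rose and 1 fell, 54.5% called against 30.0% of all genes, with a median log2 fold change of 0.33. AURKB, the Aurora kinase of the chromosomal passenger complex, had 41.5 and 47.4 CPM in Addback EDTA and 25.7 and 26.3 CPM in Vector EDTA (log2 fold change 0.77, SE 0.11, adjusted p = 0.000347). BUB1B and KIF23, of the spindle checkpoint and the midbody, each rose by 0.69. PLK1, polo-like kinase 1, fell to 101 and 106 CPM in Addback EDTA, against 151 and 159 CPM in Vector EDTA (log2 fold change -0.59, SE 0.10, adjusted p = 0.00111). The number that rose was 11 without Addback EDTA 1 and 8 without Addback EDTA 2.

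MYC, which drives growth and ribosome production, was lower at 175 and 104 CPM in Addback EDTA, against 521 and 543 CPM in Vector EDTA (log2 fold change -1.93, SE 0.40, adjusted p = 0.0101, and -1.60 with an adjusted p of 0.0609 without Addback EDTA 2). It was the only called gene of 15 immediate early genes, 6.7% of the list against 30.0% of all genes, but without B4-4 NA 1 or B4-4 NA 2 the list had 2 higher and 5 lower. The median of the list was -1.13, and it was -2.43 without Addback EDTA 1 and -0.39 without Addback EDTA 2. Ribosomal protein genes showed small differences, with 0 of 30 higher and 9 lower and a median of -0.25. The 30.0% of them called equals the share of all genes. The count of lower genes moved with the libraries, and was 15 without Addback EDTA 1 and 0 without Addback EDTA 2 or without Vector EDTA 2.

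The aryl hydrocarbon receptor (AHR), its partner ARNT and most of their targets were lower in Addback EDTA. AHR is a ligand-activated transcription factor that pairs with ARNT and induces enzymes that oxidise foreign and endogenous ring compounds. All 9 tested members were called, against 30.0% of all genes, 7 lower and 2 higher, with a median log2 fold change of -1.69. CYP1B1 (ENSG00000138061, chromosome 2, 38066973 to 38109902), a cytochrome P450 that hydroxylates oestrogens and carcinogens, fell to 141 and 68.5 CPM in Addback EDTA, against 641 and 470 CPM in Vector EDTA (log2 fold change -2.40, SE 0.30, adjusted p = 0.000606). Over the alternative fits its log2 fold change ran from -3.01 to -1.98, and its call was lost with the 2 groups alone (adjusted p = 0.0582). TIPARP, a feedback inhibitor of AHR, had 110 and 78.0 CPM in Addback EDTA and 325 and 282 CPM in Vector EDTA (log2 fold change -1.69, SE 0.19, adjusted p = 9.93e-05). CYP1A1, the classical AHR target, had 46.7 and 9.61 CPM in Addback EDTA and 125 and 135 CPM in Vector EDTA (log2 fold change -2.21, SE 0.61, adjusted p = 0.0338, and -3.75 without Addback EDTA 1 and -1.48 without Addback EDTA 2).

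The 2 Addback EDTA libraries differed from each other in these genes, with library 2 the lower, but neither reached the level of Vector EDTA. B4-4 EDTA was lower still, at 6.52 and 5.64 CPM for CYP1B1, 37.1 and 35.9 CPM for TIPARP and 1.09 and 1.01 CPM for CYP1A1. The number that fell was 6 without Addback EDTA 1, 5 without Addback EDTA 2, 3 without Vector EDTA 1 and 4 without Vector EDTA 2. CYP1A1 lost its call without Vector EDTA 1 (adjusted p = 0.0965), without Vector EDTA 2 (adjusted p = 0.105) and without any 1 of the B4-4 EDTA, Addback NA or Vector NA libraries (adjusted p from 0.058 to 0.0677). UGT1A6, a glucuronosyltransferase that shares exons with its neighbours, fell on very few reads, 1 and 1 counts in Addback EDTA against 12 and 22 counts in Vector EDTA, a 13.4-fold ratio with an exact 95% interval of 3.42 to 115 for counting error only. The antisense gene CYP1B1-AS1, which overlaps CYP1B1, fell with it to 9.47 and 5.40 CPM in Addback EDTA, against 23.7 and 27 CPM in Vector EDTA. Since the labels do not say whether the counting used strand, reads of the 2 genes cannot be told apart.

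The 2 members that rose were NQO1 and ALDH3A1. NQO1 is also a target of the antioxidant factor NRF2, which binds antioxidant response elements when oxidants or electrophiles release it from KEAP1. NQO1, a quinone reductase, had 419 and 422 CPM in Addback EDTA and 189 and 203 CPM in Vector EDTA (log2 fold change 1.10, SE 0.08, adjusted p = 6.05e-06). ALDH3A1, an aldehyde dehydrogenase named after its values were seen, rose by 1.65 on the log2 scale. NQO1 kept its call under every alternative. The call of ALDH3A1 was lost without any 1 of the Vector EDTA, B4-4 EDTA or Vector NA libraries. Of 16 NRF2 targets, 8 rose and 1 fell, 56.2% called against 30.0% of all genes. Their median log2 fold change was 0.62, and it was 0.55 without Addback EDTA 1 and 0.67 without Addback EDTA 2. AKR1C2, an aldo-keto reductase of steroids, had 213 and 256 CPM in Addback EDTA and 71.7 and 72.8 CPM in Vector EDTA (log2 fold change 1.70, SE 0.15, adjusted p = 1.34e-05). Its neighbour AKR1C1 had 197 and 158 CPM in Addback EDTA and 75.9 and 81.1 CPM in Vector EDTA, and near-identical copies in this family may share reads.

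Promoters of 2 AHR targets are shown, as targets that fell together, with the core of the xenobiotic response element, GCGTG on either strand, in capitals. TIPARP lies at chr3:156674340-156674639 on the plus strand and CYP1A1 at chr15:74725479-74725778 on the minus strand (RefSeq, GRCh38.p14).
TIPARP: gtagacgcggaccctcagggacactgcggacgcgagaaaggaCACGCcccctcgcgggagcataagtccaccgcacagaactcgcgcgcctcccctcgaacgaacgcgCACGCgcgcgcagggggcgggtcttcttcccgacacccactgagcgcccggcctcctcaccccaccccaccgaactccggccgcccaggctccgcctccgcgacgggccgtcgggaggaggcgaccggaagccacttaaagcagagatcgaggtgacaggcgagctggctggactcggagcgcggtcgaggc
CYP1A1: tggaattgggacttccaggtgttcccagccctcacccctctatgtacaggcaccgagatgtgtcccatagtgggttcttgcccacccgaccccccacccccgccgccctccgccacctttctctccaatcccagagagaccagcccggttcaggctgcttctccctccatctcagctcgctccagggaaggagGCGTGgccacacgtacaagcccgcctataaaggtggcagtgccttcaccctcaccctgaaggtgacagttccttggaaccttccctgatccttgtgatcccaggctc
TIPARP holds 2 matches and CYP1A1 holds 1, with no overlap. Of the 9 AHR genes, 7 have an entry and 6 of them hold a match, and the core is common, in 12832 of all 35116 promoters (36.5%). For NRF2 targets the antioxidant response core TGACNNNGC was in 3 of 11 promoters with an entry (GCLM, ME1 and TXNRD1), against 4687 of all promoters (13.3%).

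Called heat shock chaperones were higher in Addback EDTA, and most called genes of the unfolded protein response were lower. Heat shock factor 1 induces heat shock chaperones when proteins misfold. Of 14 such genes, 9 rose and 0 fell, 64.3% called against 30.0% of all genes. Their median log2 fold change was 0.59, and it was 0.63 without Addback EDTA 1 and 0.38 without Addback EDTA 2. Fewer rose without Addback EDTA 2. HSPA1A, an inducible HSP70 gene whose reads may be shared with its copy HSPA1B, had 333 and 359 CPM in Addback EDTA and 165 and 180 CPM in Vector EDTA (2.01-fold higher, adjusted p = 2.74e-05). HSP90AA1 had 3276 and 4224 CPM in Addback EDTA and 1763 and 1662 CPM in Vector EDTA (log2 fold change 1.13, SE 0.11, adjusted p = 2.95e-05). HSPH1 and HSPE1, a nucleotide exchange factor for HSP70 and a mitochondrial co-chaperonin, rose by 0.75 and 0.88 on the log2 scale, the scale of all such changes below.

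The unfolded protein response raises chaperones and degradation factors of the endoplasmic reticulum when folding in that compartment fails. Of its 17 genes, 7 fell and 1 rose, 47.1% called against 30.0% of all genes. DNAJB9, a reticulum co-chaperone, had 22.4 and 17.9 CPM in Addback EDTA and 72.8 and 59.5 CPM in Vector EDTA (log2 fold change -1.71, SE 0.15, adjusted p = 1.52e-05). HERPUD1, of the degradation complex, fell by 1.49, XBP1, the spliced transcription factor of the response, fell by 0.95, and HSPA5, the chaperone BiP, had 796 and 748 CPM in Addback EDTA and 1224 and 1262 CPM in Vector EDTA (log2 fold change -0.69, SE 0.11, adjusted p = 0.000618). The median of the list was -0.17, since 9 members were not called.

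ATF4 and amino acid response genes were mixed, with 9 of 22 lower and 4 higher, 59.1% called against 30.0% of all genes. The 4 with the smallest p all fell. ASNS, asparagine synthetase, had 50.5 and 50.4 CPM in Addback EDTA and 212 and 221 CPM in Vector EDTA (log2 fold change -2.10, SE 0.26, adjusted p = 0.000468). PHGDH, the first enzyme of serine synthesis, had 67.9 and 52.1 CPM in Addback EDTA and 191 and 212 CPM in Vector EDTA (log2 fold change -1.75, SE 0.15, adjusted p = 1.34e-05). PSAT1, the next enzyme of that pathway, and MTHFD2, of mitochondrial folate metabolism, fell by 0.84 and 0.73. The number that fell was 7 without Addback EDTA 1 and 5 without Addback EDTA 2 or without Vector EDTA 2, and the number that rose was 1 without Vector EDTA 1 and 2 without any other of the 4 libraries.

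**Figure D2:**
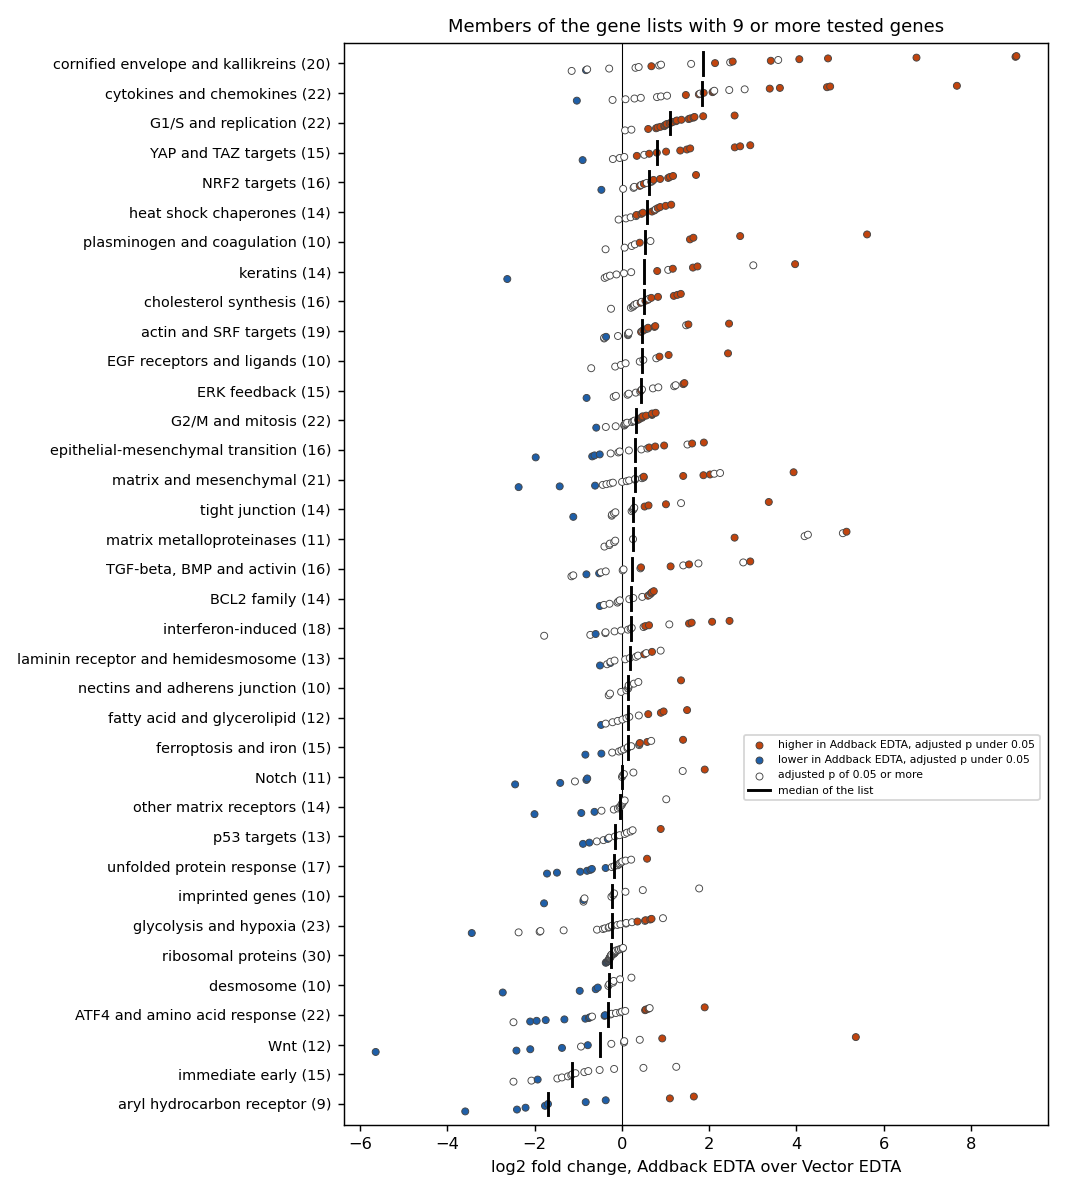
Each row is a gene list with at least 9 tested genes (number in brackets), each dot a member at its log2 fold change of Addback EDTA over Vector EDTA, filled red or blue where called higher or lower, and each black bar the list's median. G1/S genes lie to the right with a median of 1.11, and AHR genes to the left with a median of -1.69.

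Of 16 genes of cholesterol synthesis, targets of SREBP2, 8 rose, 0 fell and 8 were not called, with a median of 0.50, and 10 rose without Addback EDTA 1 and 6 without Addback EDTA 2. Among all genes, 16.1% were higher and 14.0% lower with all libraries. LSS, lanosterol synthase, had 192 and 231 CPM in Addback EDTA and 81.0 and 94.2 CPM in Vector EDTA (log2 fold change 1.27, SE 0.12, adjusted p = 2.7e-05). MVD, DHCR7 and SQLE, further enzymes of the pathway, rose by 1.35, 0.83 and 0.60. Of 12 fatty acid and glycerolipid genes, 4 rose, 1 fell and 7 were not called, 41.7% called against 30.0% of all genes. The median was 0.14, and -0.08 without Addback EDTA 2. ACLY, which makes cytosolic acetyl-CoA, had 585 and 878 CPM in Addback EDTA and 254 and 266 CPM in Vector EDTA (log2 fold change 1.49, SE 0.18, adjusted p = 0.00016). FASN, fatty acid synthase, had 1659 and 2190 CPM in Addback EDTA and 954 and 1118 CPM in Vector EDTA (log2 fold change 0.89, SE 0.14, adjusted p = 0.000672). The number of fatty acid genes that rose was 4 without either Addback EDTA library.

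In the glycolysis and hypoxia list 4 of 23 were higher and 1 lower, 21.7% called against 30.0% of all genes. The count depended on B4-4 NA, since without B4-4 NA 1 or B4-4 NA 2 there were 7 higher and 9 lower. ENO1 had 3683 and 3452 CPM in Addback EDTA and 2350 and 2547 CPM in Vector EDTA, and PKM had 3422 and 3310 CPM in Addback EDTA and 2104 and 2187 CPM in Vector EDTA, both glycolytic enzymes. PDK4, which switches off pyruvate dehydrogenase, was the gene that fell, at 11.2 and 49.4 CPM in Addback EDTA against 358 and 300 CPM in Vector EDTA (log2 fold change -3.44, SE 0.83, adjusted p = 0.0228). Its call was lost without Vector EDTA 1 (adjusted p = 0.0727), without Vector EDTA 2 (adjusted p = 0.0572) and without Addback EDTA 1 (adjusted p = 0.0526). In the ferroptosis and iron list, 3 of 15 rose and 2 fell, 33.3% called against 30.0% of all genes, and 5 rose and 3 fell without either B4-4 NA library. TFRC, the transferrin receptor, had 427 and 435 CPM in Addback EDTA and 170 and 156 CPM in Vector EDTA (log2 fold change 1.4, SE 0.14, adjusted p = 3.28e-05). STEAP3, the endosomal iron reductase, fell to 97.9 and 69.6 CPM in Addback EDTA, against 140 and 159 CPM in Vector EDTA.

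Targets of the mechanosensitive coactivators YAP and TAZ were mostly higher, 10 of 15 with 1 lower, 73.3% called against 30.0% of all genes. The median was 0.80. CCN2, a matricellular protein also called CTGF, had 24.6 and 21.9 CPM in Addback EDTA and 3.24 and 4.48 CPM in Vector EDTA (log2 fold change 2.59, SE 0.23, adjusted p = 1.52e-05). FJX1 had 36.3 and 36.8 CPM in Addback EDTA and 11.8 and 12.9 CPM in Vector EDTA (log2 fold change 1.57, SE 0.11, adjusted p = 3.38e-06). AJUBA, a LIM protein that inhibits the LATS kinases, had 81.3 and 84.7 CPM in Addback EDTA and 41.6 and 40.7 CPM in Vector EDTA (log2 fold change 1.01, SE 0.09, adjusted p = 1.67e-05). In these 3 genes both Addback EDTA libraries stood well above both Vector EDTA libraries. F3, tissue factor, had 56.1 and 114 CPM in Addback EDTA and 14.6 and 11.4 CPM in Vector EDTA. The number that rose was 10 without Addback EDTA 1 and 6 without Addback EDTA 2, Vector EDTA 1 or Vector EDTA 2. Of 19 actin and SRF targets, 8 rose and 1 fell, 47.4% called against 30.0% of all genes. Among those that rose was FLNA, filamin A, at 1810 and 2413 CPM in Addback EDTA and 1170 and 1314 CPM in Vector EDTA. Far fewer actin and SRF targets rose without Addback EDTA 2 or without Vector EDTA 1.

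Genes of plasminogen activation and coagulation, proteases and inhibitors at the cell surface, rose in 5 of 10 and fell in 0. Across all genes, 16.1% were higher and 14.0% lower. Besides F3, PLAUR, the urokinase receptor, had 34.1 and 52.9 CPM in Addback EDTA and 13.9 and 14.1 CPM in Vector EDTA (log2 fold change 1.64, SE 0.19, adjusted p = 0.000135). Of EGF family ligands and receptors, 3 of 10 rose and 0 fell, the same share as the 30.0% of all genes called, and 5 rose and 1 fell without either B4-4 NA library. EREG, epiregulin, had 42.9 and 58.9 CPM in Addback EDTA and 11 and 7.84 CPM in Vector EDTA (log2 fold change 2.43, SE 0.33, adjusted p = 0.000705), and EPGN and NRG1, epigen and neuregulin-1, rose by 0.86 and 1.07. In the Notch list, 4 of 11 fell and 1 rose, 45.5% called against 30.0% of all genes. JAG1, a Notch ligand, had 69.3 and 67.5 CPM in Addback EDTA and 187 and 178 CPM in Vector EDTA (log2 fold change -1.41, SE 0.12, adjusted p = 1.34e-05), and NRARP, a Notch-induced feedback protein, had 60.7 and 30.6 CPM in Addback EDTA and 251 and 246 CPM in Vector EDTA. NOTCH1 itself fell by 0.81. Leaving out any 1 library left 4 or 5 of the Notch genes lower.

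Of 22 tested cytokine and chemokine genes, 10 rose and 1 fell, with a median of 1.83, but only 4 rose without Vector EDTA 1 or without Vector EDTA 2. With all libraries, 16.1% of all genes were higher and 14.0% lower. CSF3, granulocyte colony-stimulating factor, had 13.9 and 37.2 CPM in Addback EDTA and 1.07 and 0.798 CPM in Vector EDTA (log2 fold change 4.77, SE 0.73, adjusted p = 0.00261, and 3.89 without Addback EDTA 2). LIF, an IL6-family cytokine, had 9.01 and 8.87 CPM in Addback EDTA and 2.64 and 2.61 CPM in Vector EDTA (log2 fold change 1.76, SE 0.22, adjusted p = 0.000173). CSF1, the macrophage growth factor, had 37.5 and 27.9 CPM in Addback EDTA and 11.6 and 12 CPM in Vector EDTA. The receptor antagonist IL1RN was the gene that fell, at 5.38 and 4.89 CPM in Addback EDTA and 10.3 and 10.7 CPM in Vector EDTA (log2 fold change -1.03, SE 0.20, adjusted p = 0.0025). CXCL1, a neutrophil chemokine, had 79.9 and 142 CPM in Addback EDTA and 4.31 and 4.21 CPM in Vector EDTA (log2 fold change 4.70, SE 0.83, adjusted p = 0.00698), with an adjusted p of 0.056 without Vector EDTA 1 and 0.0515 without Vector EDTA 2.

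CCL2, a monocyte chemokine, was far higher in 1 library than in the other, at 48.2 and 0.967 CPM in Addback EDTA and 0.185 and 0.0443 CPM in Vector EDTA (log2 fold change 7.68, SE 2.12, adjusted p = 0.0364). Its log2 fold change was 3.03 without Addback EDTA 1 and 8.65 without Addback EDTA 2. The call of CCL2 was lost without Vector EDTA 1 (adjusted p = 0.15), without Vector EDTA 2 (adjusted p = 0.156) and without any 1 of the other 8 libraries (adjusted p from 0.0593 to 0.0689). IL1RL1, the receptor of IL33, had 50 and 313 counts in Addback EDTA and 0 and 1 counts in Vector EDTA, a 462-fold ratio with an exact 95% interval of 82.4 to 1.83e+04 for counting error only. Its adjusted p of 0.0139 became 0.103 without Vector EDTA 1 and 0.0897 without Vector EDTA 2. Leukocyte markers summed to 35.3 and 8.64 CPM in Addback EDTA and to 9.26 and 9.87 CPM in Vector EDTA, most of it from CD14 with 603 and 151 counts in Addback EDTA and 197 and 223 counts in Vector EDTA, and the part of other cells in the cytokine levels was not tested. Among 18 interferon-induced genes, 6 rose and 1 fell, 38.9% called against 30.0% of all genes. Fewer of them rose without Addback EDTA 2 or without Vector EDTA 1.

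Genes of the cornified envelope and kallikreins, made by keratinocytes as they differentiate, were in part near 0 in Vector EDTA. Of 26 listed, 20 were tested, of which 9 rose and 1 fell, with 6 higher without Addback EDTA 2 and 3 without Vector EDTA 1. The shares of all genes with all libraries were 16.1% higher and 14.0% lower. LCN2, lipocalin 2, had 30 and 91 counts in Addback EDTA and 0 and 0 counts in Vector EDTA, at least 51.3-fold higher against a floor of 3 counts over the group. S100A7, psoriasin, had 21 and 102 counts in Addback EDTA and 0 and 0 counts in Vector EDTA, at least 52.2-fold higher on the same floor. KLK5, a skin serine protease, had 2.81 and 8.76 CPM in Addback EDTA and 0.324 and 0.355 CPM in Vector EDTA (log2 fold change 4.07, SE 0.59, adjusted p = 0.000618, and 4.67 without Addback EDTA 1 and 3.02 without Addback EDTA 2). Addback EDTA 2 was the higher library in all 3 genes. TGM1, the transglutaminase that cross-links the envelope, differed by less, 73.0 and 79.2 CPM in Addback EDTA and 45.4 and 49.9 CPM in Vector EDTA, and lost its call without Vector EDTA 1 (adjusted p = 0.0509).

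Keratins also changed, 5 of 14 higher and 1 lower, 42.9% called against 30.0% of all genes. Fewer were higher without Vector EDTA 1 or Vector EDTA 2. KRT6A, a keratin of activated epithelium, had 1777 and 1862 CPM in Addback EDTA and 1011 and 1066 CPM in Vector EDTA (log2 fold change 0.81, SE 0.10, adjusted p = 0.000167), and its near copies KRT6B and KRT6C rose by 1.63 and 1.17, though reads may be shared among them. KRT80 had 3.68 and 22.1 CPM in Addback EDTA and 1.02 and 0.620 CPM in Vector EDTA, with an adjusted p of 0.00958 that became 0.0566 without Vector EDTA 1 and 0.0693 without Vector EDTA 2. KRT15, the keratin that fell and a gene named after its values were seen, had 148 and 152 CPM in Addback EDTA and 918 and 932 CPM in Vector EDTA (log2 fold change -2.63, SE 0.55, adjusted p = 0.0127), and 0 keratins fell without Vector EDTA 1.

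In the desmosome list 0 of 10 rose and 4 fell, 40.0% of the list against 14.0% of all genes lower. DSC3, desmocollin 3, had 276 and 271 CPM in Addback EDTA and 565 and 503 CPM in Vector EDTA (log2 fold change -0.97, SE 0.11, adjusted p = 8.3e-05). PKP2 fell by 0.55, a call lost without Addback EDTA 2 (adjusted p = 0.0501) and without Vector EDTA 1 (adjusted p = 0.067). DSG3 fell by 0.60, a call lost without Addback EDTA 1 (adjusted p = 0.0883) and without Vector EDTA 1 (adjusted p = 0.0922). PKP1 had 3 and 0 counts in Addback EDTA and 14 and 13 counts in Vector EDTA, with its call lost without Addback EDTA 2 (adjusted p = 0.106), Vector EDTA 1 (adjusted p = 0.0718) or Vector EDTA 2 (adjusted p = 0.0533). In all, 1 desmosome gene was lower without Vector EDTA 1. Among nectins and adherens junction genes 1 of 10 was called, the poliovirus receptor gene PVR, with 66.3 and 91.5 CPM in Addback EDTA and 30.3 and 31.3 CPM in Vector EDTA (log2 fold change 1.36, SE 0.15, adjusted p = 5.54e-05). Of 14 tight junction genes 4 rose and 1 fell (35.7% called), and 1 rose without Addback EDTA 2, and 0 without Vector EDTA 1 or Vector EDTA 2. CLDN4, claudin 4, had 2.87 and 15.9 CPM in Addback EDTA and 1.02 and 0.798 CPM in Vector EDTA (adjusted p = 0.0101, 0.0631 without Vector EDTA 1 and 0.0691 without Vector EDTA 2).

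Epithelial-mesenchymal transition genes changed in both directions, 5 of 16 higher and 4 lower, 56.2% called against 30.0% of all genes. Fewer were higher without Addback EDTA 2, and fewer were lower without Addback EDTA 1 or either Vector EDTA library. SNAI2, the repressor Slug, had 93.4 and 45.7 CPM in Addback EDTA and 285 and 261 CPM in Vector EDTA (log2 fold change -1.97, SE 0.27, adjusted p = 0.000722). Over the alternative fits its log2 fold change ran from -2.57 to -1.55, and its call was lost with the 2 groups alone (adjusted p = 0.054). The splicing regulators of epithelial cells parted, with ESRP1 lower by a log2 fold change of -0.63 and ESRP2 higher by 0.76, and EPCAM, an epithelial adhesion molecule, rose by 0.63. Of 21 matrix and mesenchymal genes, 5 rose and 3 fell, 38.1% called against 30.0% of all genes. COL6A2, a chain of collagen VI, had 7.25 and 8.19 CPM in Addback EDTA and 0.602 and 0.399 CPM in Vector EDTA (log2 fold change 3.93, SE 0.26, adjusted p = 2.88e-06). COL8A1 had 53.8 and 92.9 CPM in Addback EDTA and 18.7 and 17.4 CPM in Vector EDTA, SPARC had 22.0 and 36.4 CPM against 77.5 and 79.3 CPM, and LOX, which cross-links collagen, had 36.7 and 30.8 CPM against 201 and 147 CPM. Without Addback EDTA 2, 4 rose and 1 fell, with LOX at an adjusted p of 0.0564, and 3 rose without Vector EDTA 1 and 2 without Vector EDTA 2. Fibroblast markers summed to 48.8 and 131 CPM in Addback EDTA and 33.8 and 34.4 CPM in Vector EDTA. Its members went different ways, COL1A1 with 206 and 197 counts in Addback EDTA and 307 and 390 counts in Vector EDTA, DCN with 298 and 912 counts in Addback EDTA and 229 and 189 counts in Vector EDTA, and FAP with 241 and 1160 counts in Addback EDTA and 118 and 121 counts in Vector EDTA. The part of other cells in the matrix genes was not tested.

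In the TGF-beta list 4 of 16 rose and 2 fell, 37.5% called against 30.0% of all genes. TGFB2 had 2.34 and 5.74 CPM in Addback EDTA and 0.510 and 0.532 CPM in Vector EDTA. In the Wnt list 2 of 12 rose and 5 fell, 58.3% called against 30.0% of all genes. DKK1, a secreted Wnt antagonist, had 5.26 and 28.7 CPM in Addback EDTA and 0.371 and 0.443 CPM in Vector EDTA (log2 fold change 5.36, SE 0.88, adjusted p = 0.00342, and 6.12 without Addback EDTA 1 and 3.67 without Addback EDTA 2). WNT3A, a canonical ligand, had 1 and 0 counts in Addback EDTA and 38 and 40 counts in Vector EDTA, a 61.3-fold ratio with an exact 95% interval of 10.7 to 2.45e+03 for counting error only. Of 15 ERK feedback genes, 3 rose and 1 fell, 26.7% called against 30.0% of all genes. Beside that 30.0%, 4 of 14 BCL2 family genes rose and 1 fell (35.7% called). Of 13 p53 targets, 1 rose and 3 fell (30.8% called). BCL2L1, which encodes the survival protein BCL-XL, had 63.7 and 66.0 CPM in Addback EDTA and 38.8 and 39.3 CPM in Vector EDTA (adjusted p = 0.00792, and 0.0562 without Vector EDTA 1). Set against 16.1% of all genes higher and 14.0% lower, 2 of 11 matrix metalloproteinase genes rose and 0 fell. Of 10 imprinted genes, 0 rose and 2 fell. These small counts moved with the libraries. Without Addback EDTA 2, Vector EDTA 1 or Vector EDTA 2, fewer BCL2 family and ERK feedback genes rose and fewer Wnt genes fell. Fewer metalloproteinase genes rose without either Vector EDTA library or either B4-4 EDTA library. More TGF-beta genes rose without Addback EDTA 1, and fewer fell without Addback EDTA 2 or either Vector EDTA library. Counts also grew, to 7 ERK feedback and 4 metalloproteinase genes higher without both B4-4 NA libraries. The metalloproteinase gene MMP10 rose on 6 and 2 counts in Addback EDTA against 0 and 0 counts in Vector EDTA. Its call was lost without Addback EDTA 1, without either Vector EDTA library and without either B4-4 EDTA library. DESeq2 gave it no adjusted p.

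Single genes with the largest changes reached well beyond the lists. Among the 15 that fell most, TNS1, tensin 1, which links integrins to actin, had 1.93 and 2.67 CPM in Addback EDTA and 51.7 and 55.5 CPM in Vector EDTA (log2 fold change -4.54, SE 0.46, adjusted p = 0.000179). CHI3L1, a secreted chitinase-like protein, had 0.760 and 0.967 CPM in Addback EDTA and 14.9 and 14.1 CPM in Vector EDTA (log2 fold change -4.06, SE 0.36, adjusted p = 1.52e-05). FGFR3, a fibroblast growth factor receptor, had 4.85 and 2.62 CPM in Addback EDTA and 53.5 and 56.6 CPM in Vector EDTA (log2 fold change -3.88, SE 0.38, adjusted p = 0.000107). SCNN1B, a subunit of the epithelial sodium channel, had 1.29 and 3.70 CPM in Addback EDTA and 35.7 and 35.5 CPM in Vector EDTA. CBS, the first enzyme of transsulfuration, had 1.29 and 0.967 CPM in Addback EDTA and 16.9 and 16 CPM in Vector EDTA. In these 5 genes both Addback EDTA libraries were low and the groups were far from overlap. ZNF608, TSHZ2 and the kinase gene FGR fell by 3.79, 3.78 and 3.70. IQCN fell by 3.73 and lost its call without Addback EDTA 2 (adjusted p = 0.0909), Vector EDTA 1 (adjusted p = 0.0597) or Vector EDTA 2 (adjusted p = 0.0636). RN7SL2, a signal recognition particle RNA without a polyA tail, fell by 3.79 and lost its call without any 1 of the Addback EDTA, Vector EDTA or Addback NA libraries (adjusted p from 0.0595 to 0.144).

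Some of the largest differences were tight in both libraries and were of like size in NA. SRGN, serglycin, a proteoglycan of secretory granules, had 29.2 and 26.1 CPM in Addback EDTA and 2.27 and 2.04 CPM in Vector EDTA (log2 fold change 3.68, SE 0.19, adjusted p = 4.73e-07), and 28.6 and 25.8 CPM in Addback NA and 1.18 and 1.65 CPM in Vector NA. PDE3B, a phosphodiesterase of cyclic AMP, had 9.71 and 9.67 CPM in Addback EDTA and 0.695 and 0.443 CPM in Vector EDTA, and 10.2 and 9.37 CPM in Addback NA and 0.617 and 0.668 CPM in Vector NA. STAP2, a signalling adaptor, had 0.760 and 0.967 CPM in Addback EDTA and 13.2 and 16.6 CPM in Vector EDTA. B4-4 EDTA stood with Vector EDTA in these genes, at 1.14 and 0.852 CPM for SRGN, 0.259 and 0.746 CPM for PDE3B and 15.8 and 16.2 CPM for STAP2. KCNK6, a potassium channel, had 0.702 and 0.569 CPM in Addback EDTA and 9.40 and 10.2 CPM in Vector EDTA, and the PDZ scaffold gene GRIP1 and the ubiquitin ligase gene RNF150 fell by 3.53 and 3.35. For SRGN, PDE3B, STAP2, KCNK6, GRIP1 and RNF150 the test of the difference between EDTA and NA gave adjusted p-values from 0.152 for SRGN to 0.864 for PDE3B, which does not show that the differences are equal.

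AKR1B1, aldose reductase, which makes sorbitol, had 4373 and 369 CPM in Addback EDTA and 158 and 181 CPM in Vector EDTA (log2 fold change 3.80, SE 1.03, adjusted p = 0.0345). Its log2 fold change was 1.13 without Addback EDTA 1 and 4.68 without Addback EDTA 2. The call of AKR1B1 was lost without Vector EDTA 1 (adjusted p = 0.16), without Vector EDTA 2 (adjusted p = 0.137) and without any 1 of the B4-4 EDTA, Addback NA or Vector NA libraries (adjusted p from 0.0606 to 0.0668). CAPN8, a calpain, had 18.9 and 2.05 CPM in Addback EDTA and 0.0927 and 0.798 CPM in Vector EDTA, with an adjusted p of 0.0199 that became 0.107 without Vector EDTA 1. MUC16, a membrane mucin, had 5.91 and 33.3 CPM in Addback EDTA and 0.927 and 1.33 CPM in Vector EDTA, with an adjusted p of 0.0139 that became 0.0905 without Vector EDTA 1 and 0.0692 without Vector EDTA 2. Of the 15 genes that rose most, 7 kept their calls with any library left out, among them DKK1, CSF3, SRGN and PDE3B above. CADM3, a nectin-like adhesion molecule, had 9.24 and 30.1 CPM in Addback EDTA and 1.07 and 1.02 CPM in Vector EDTA (log2 fold change 4.23, and 3.14 without Addback EDTA 2), S1PR3, a sphingosine phosphate receptor, rose by 3.75 (2.73 without Addback EDTA 2), and ANKRD2, an ankyrin repeat protein of muscle, rose by 3.47.

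**Figure D3:**
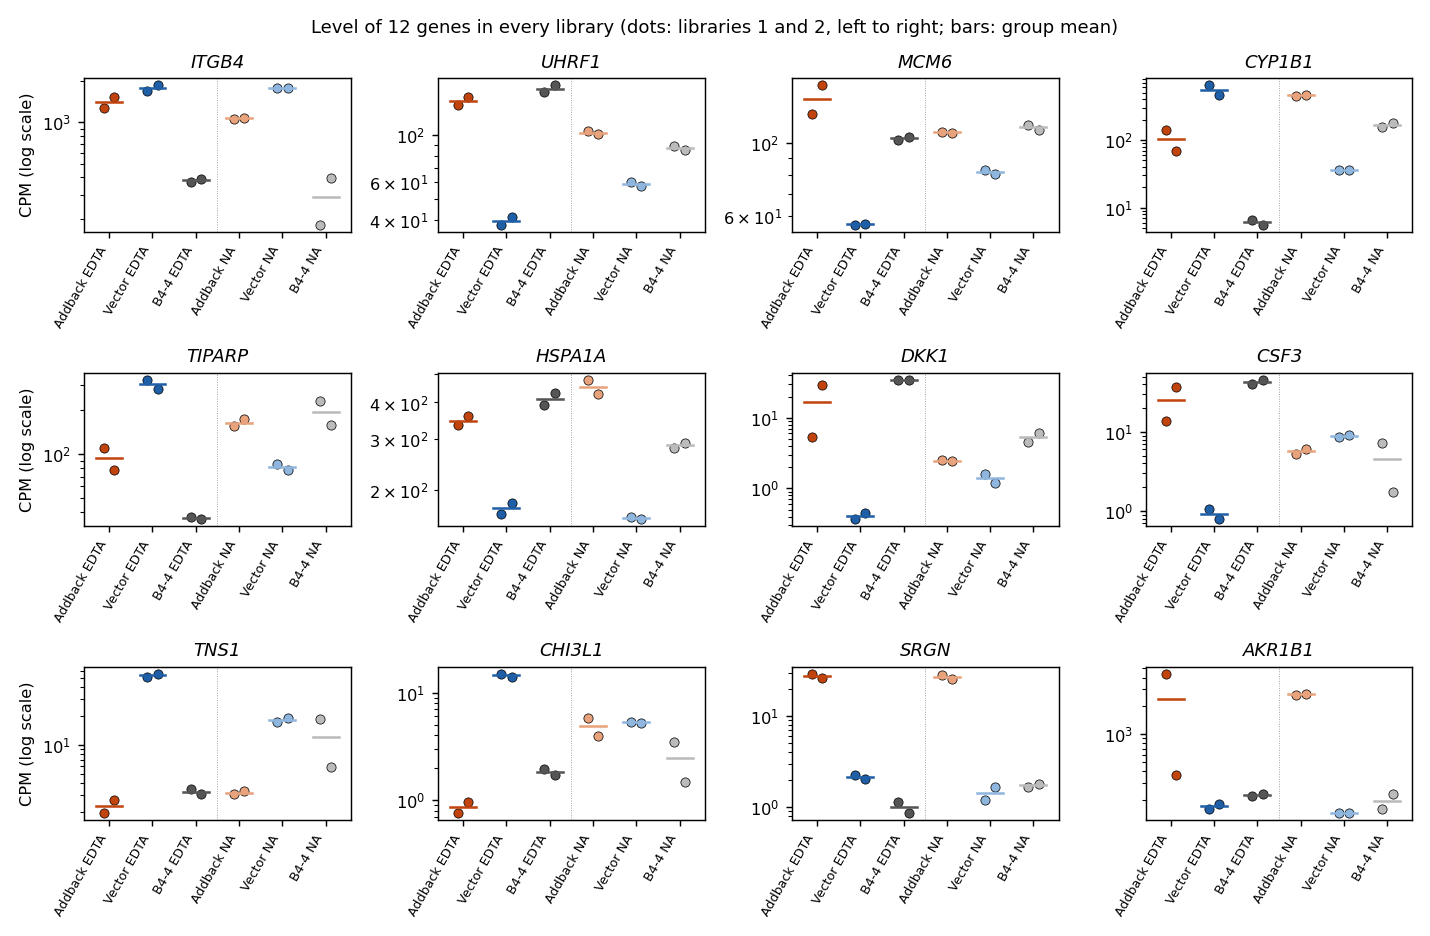
CPM on a log scale for 12 genes in each of the 6 groups, with a dot for each library (library 1 left, library 2 right) and a bar for the group mean; the dotted line parts EDTA from NA. UHRF1, MCM6, HSPA1A and SRGN are higher in both Addback EDTA libraries than in both Vector EDTA libraries, TIPARP, CYP1B1, TNS1 and CHI3L1 are lower, and AKR1B1 is 4373 CPM in one Addback EDTA library and 369 CPM in the other.

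The difference between the lines under EDTA was tested against their difference in NA. That test called 3818 of 15749 genes (24.2%), for 2113 of which the signed log2 fold change of Addback over Vector was higher with EDTA than in NA and for 1705 lower. With upper-quartile scaling the split was 1723 higher and 2013 lower, so the larger direction depends on the scaling. CYP1B1 had 450 and 466 CPM in Addback NA and 36.1 and 36.0 CPM in Vector NA, so that it was higher in Addback in NA and lower in Addback with EDTA (difference of the log2 fold changes -6.07, SE 0.43, adjusted p = 5.1e-05). TIPARP turned the same way, with 155 and 173 CPM in Addback NA and 85.0 and 77.6 CPM in Vector NA (difference -2.71, adjusted p = 5.94e-05). HSPA5 and JAG1 were also higher in Addback in NA, by 1.16 and 1.13, and lower with EDTA (differences -1.85 and -2.54, adjusted p = 1.07e-05 and 3.85e-06). The opposite turn was seen in EPGN, with 22.8 and 23.8 CPM in Addback NA and 154 and 158 CPM in Vector NA (difference 3.60, adjusted p = 5.42e-07), in KRT6A (difference 1.88, adjusted p = 7.02e-06) and in AJUBA (difference 1.71, adjusted p = 6.25e-06).

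For the kallikrein gene KLK7 the Addback NA libraries were at 0.0559 and 0.0542 CPM, a single count each, against 55.7 and 57.6 CPM in Vector NA, while Addback EDTA had 3.27 and 15 CPM and Vector EDTA 0.278 and 0.399 CPM. The fitted difference of 14.56 (SE 1.54, adjusted p = 0.000686) depends on the prior count added near 0. PROM2, not called with EDTA, was lower in Addback in NA, at 5.15 and 4.23 CPM against 40.4 and 40.8 CPM in Vector NA, so that the lines differed less with EDTA (difference of the signed log2 fold changes 3.04, SE 0.23, adjusted p = 6.18e-06). E2F2 was higher in Addback with EDTA and lower in NA, at 9.85 and 7.80 CPM in Addback NA and 15.8 and 14.1 CPM in Vector NA (difference 3.34, adjusted p = 1.56e-05, with an adjusted p of 0.0106 in NA). In the G1/S list 13 of 22 genes differed between EDTA and NA in this test, and in the G2/M list 19 of 22. Of all genes, 24.2% were called in it. These counts do not separate the directions. TFRC and CCN2 were higher in Addback in both, with a smaller difference with EDTA for TFRC (difference -1.48, adjusted p = 0.000277) and with an adjusted p of 0.069 for CCN2.

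**Figure D4:**
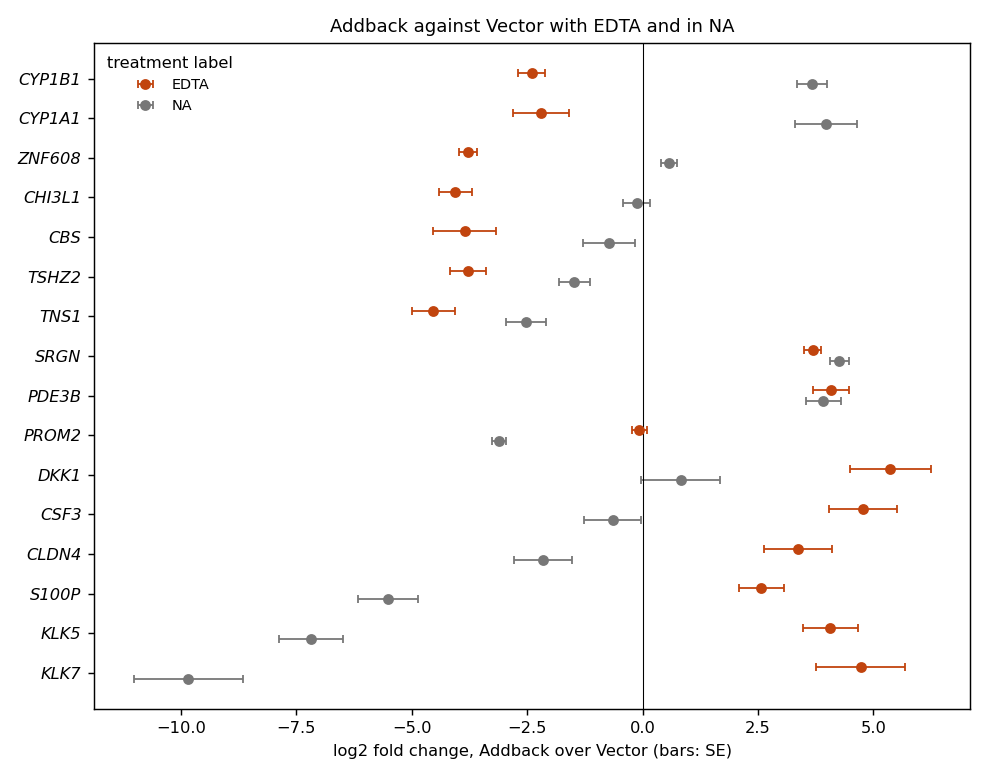
Log2 fold change of Addback over Vector with EDTA (red) and in NA (grey) for 16 genes, with bars of 1 SE. CYP1B1, CYP1A1, KLK5, KLK7, S100P and CLDN4 have opposite signs in the 2 conditions, SRGN and PDE3B lie at like values, and PROM2 is at -0.07 with EDTA and at -3.11 in NA; KLK5, KLK7 and S100P in NA rest on Addback levels of 0.0542 to 0.379 CPM.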

How the data were processed

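PolyA RNA of 12 libraries was sequenced from a stranded kit. The authors deposited raw read counts per gene in 1 table. Per the submitters' processing notes, TopHat2 2.1.1, SAMtools 1.4.1 and featureCounts 1.5.3 were used, and the builds GRCh38, hg19 and hg38 are listed with no role. Which annotation the counting used, and whether it used strand, is not given in the sources read here. Gene names and positions came from GENCODE 29 (GRCh38).

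Of 58233 genes, 15749 passed edgeR's filterByExpr. The counts were fitted with edgeR 4.0.16 in R 4.3.3 (TMM scaling, quasi-likelihood test, 6 group means, all 12 libraries), with Benjamini-Hochberg adjustment over all genes tested and a threshold of 0.05. The SE was taken from the log2 fold change and its F value. DESeq2 1.42.0, 2 other scalings, no filter, a replicate block, the 2 groups alone and leaving out each library were alternatives. The scripts were tested on simulated counts. The floor was 3 counts over a group, and the 95% intervals cover counting error only.

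Named genes are ITGB4, ITGA6, NECTIN4 and PROM2, the 15 largest called changes per direction with a mean of at least 5 CPM and no overlap between groups, up to 4 called genes per list by smallest p, the 5 largest differences per direction between EDTA and NA, and the 5 largest ratios per direction between the Addback EDTA libraries. The comparison, the 41 lists and the rules were chosen with earlier results of these data known.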

Additional observations from a re-analysis of the deposited data

Results flagged for a closer look

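The Addback to Vector difference itself differed between EDTA and NA for 3818 of 15749 genes in edgeR's quasi-likelihood test. The 18 genes given here are those among ITGB4, ITGA6, NECTIN4 and PROM2, the largest changes and the largest differences. Values are the log2 fold change with EDTA minus that in NA. This signed value was below 0 for CYP1A1 (-6.18, SE 0.91, adjusted p = 0.0039), CYP1B1 (-6.07, SE 0.43, adjusted p = 5.1e-05) and its overlapping antisense gene CYP1B1-AS1 (-4.74, SE 0.34, adjusted p = 4.63e-06). All 3 were higher in Addback in NA, by 3.97, 3.67 and 2.97, and lower with EDTA.

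ANKRD33B differed by -4.56 (SE 0.71, adjusted p = 0.00199), with a log2 fold change of -0.24 with EDTA and 4.32 in NA. Genes among those that fell most with EDTA also differed: ZNF608 by -4.36 (SE 0.26, adjusted p = 1.95e-06), CHI3L1 by -3.93 (SE 0.47, adjusted p = 0.000147), CBS by -3.13 (SE 0.88, adjusted p = 0.0333), TSHZ2 by -2.31 (SE 0.53, adjusted p = 0.00822) and TNS1 by -2.01 (SE 0.64, adjusted p = 0.0484).

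The signed value was above 0 for PROM2 (3.04, SE 0.23, adjusted p = 6.18e-06), whose log2 fold change was -0.07 with EDTA and -3.11 in NA, so that the lines differed less with EDTA. It was also above 0 for DKK1 (4.54, SE 1.29, adjusted p = 0.0393), CSF3 (5.42, SE 0.96, adjusted p = 0.00631) and CLDN4 (5.53, SE 0.97, adjusted p = 0.00483). It was above 0, with a fold change of opposite sign in NA and of larger size there, for S100P (8.09, SE 0.82, adjusted p = 0.00014), AZGP1 (9.12, SE 1.23, adjusted p = 0.00148), KLK5 (11.24, SE 0.92, adjusted p = 2.24e-05), MUC16 (11.56, SE 1.6, adjusted p = 0.00263) and KLK7 (14.56, SE 1.54, adjusted p = 0.000686). Addback NA libraries had at most 0.379 CPM for these last 5 genes, so their fitted differences depend on the prior count and are no bound.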

How the results depend on the processing

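Other scalings, no filter, DESeq2 and the replicate block moved the 4728 calls to between 4274 and 5002. Leaving out 1 library gave 2718 (without Vector EDTA 1) to 6216 (without B4-4 NA 1), and 3144 without Addback EDTA 2. Requiring a change of at least 2-fold left 1500. For the difference between EDTA and NA, the 3818 calls became 2138 (without Vector NA 2) to 5346 (without B4-4 NA 1), and 2006 at 2-fold or more. Without both B4-4 NA libraries, an alternative chosen after seeing the data, 6162 genes were called. Replicate numbers do not pair the libraries (correlation of deviations -0.0513 between Addback EDTA and Vector EDTA), and with the replicate block 4717 genes were called, and 3851 for the difference. With the 2 groups alone, 3521 genes were called. Named genes that lost their call in that fit include CYP1B1, SNAI2, DKK1 (adjusted p = 0.0989), CLDN4 (adjusted p = 0.131), KRT80 (adjusted p = 0.144) and MUC16 (adjusted p = 0.149). Of 163 called genes named, 106 kept the call under every alternative, 53 lost it without at least 1 library and 0 changed sign. The causes were not tested. With 2 libraries a group, and 0.133 to 0.175 CPM at 3 counts, changes in low genes are poorly bounded.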

Other observations

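Genes named after their values were seen add to the picture of the 2 Addback EDTA libraries. FN1, fibronectin, had 191 and 784 CPM in Addback EDTA and 101 and 104 CPM in Vector EDTA, 608 and 610 CPM in B4-4 EDTA and 595 and 580 CPM in Addback NA, and was not called (adjusted p = 0.0602). ACTB, cytoplasmic beta actin, was close in both, at 6664 and 7178 CPM in Addback EDTA and 2322 and 2491 CPM in Vector EDTA (log2 fold change 1.52, SE 0.31, adjusted p = 0.00767).

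Transcripts without a polyA tail varied between libraries. The RNA5-8SN and 5_8S_rRNA rows took 0.00295% and 0.0289% of counts in Addback EDTA, against 0.00358% and 0.00488% in Vector EDTA. Signal recognition particle RNA rows took 0.00113% and 0.00106% in Addback EDTA, against 0.00387% and 0.00647% in Vector EDTA. Replication-dependent histone genes took 0.0263% and 0.0103% in Addback EDTA, against 0.0280% in both Vector EDTA libraries. The part of RNA selection in any result was not tested.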
